A study of Mus musculus with 12 samples.

Results

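Gene expression in RAW 264.7 cells given a miR-223 precursor was compared with that in cells given a miR-223 inhibitor, with 1 outlying inhibitor array left out. RAW 264.7 is a mouse macrophage line transformed by the Abelson murine leukemia virus, so the arrays describe 1 transformed line and no primary macrophage. All cells were transfected for 48 h: the mimic group (Pre-miR-223) comprised replicates 1 to 4, and the inhibitor group (Anti-miR-223) comprised replicates 1 to 3. These were 7 of the 12 arrays in the study; the other arrays were 4 from cells transfected with a scramble control and Anti-miR-223 replicate 4. The titles call the replicates biological, but nothing further says whether they came from separate cultures, so the p-values measure the spread between these samples.

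The members were chosen by measured values: Anti-miR-223 replicate 4 was left out because its signals stood apart from all other arrays. Of 22180 gene symbols with a row of their own, 6846 genes had a mean log2 signal above 4 over the 7 arrays in their brightest row and were tested, and 15334 lay at or below that level. Just inside the threshold were Pknox1, Bsdc1 and Ska1, each at 4.001, and just outside it Coa4, Fgfbp3 and Mir27a, each at 3.999. Of the genes tested, 6583 were protein coding.

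MicroRNA-223 is an abundant microRNA of the myeloid lineage. Like other microRNAs it is loaded into an Argonaute protein and pairs through its seed, the bases near its 5′ end, with sites mostly in the 3′ ends of messenger RNAs, which are then translated less or degraded. A precursor or mimic adds to its activity and an antisense inhibitor blocks it, so transcripts under its direct control would lie lower with the mimic than with the inhibitor. In macrophages it is known for restraining inflammatory signalling and for its part in differentiation, and in lipid metabolism its reported targets include genes of cholesterol synthesis and uptake. Both mature strands of the mouse gene are shown because they are what the mimic imitates and the inhibitor opposes; the labels do not say which strand either reagent was designed on. They are in RefSeq on GRCm38.p6, the 5p strand at chrX:96242842-96242864 and the 3p strand at chrX:96242884-96242905, both on the plus strand, written 5′ to 3′ with the seed (bases 2 to 8) in capitals.
miR-223-5p: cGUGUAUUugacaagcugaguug
miR-223-3p: uGUCAGUUugucaaauacccca
Neither seed is shared with another of the 1738 mature mouse sequences in that table. The full match to the 3p seed in a target would read AACUGAC and to the 5p seed AAUACAC; target sites were not analysed here.

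The cells carried macrophage transcripts. Of 30 macrophage identity genes with a row of their own, 25 lay above the level tested, led by the lysozyme gene Lyz1 at 11.3. Markers of fibroblasts (0 of 10), epithelium (0 of 9), lymphoid cells (0 of 11) and neutrophils (0 of 10) lay below it. Among 8 dendritic cell markers 1 lay above it, the C-type lectin gene Cd209a, whose groups overlapped. The summed log2 signal of the macrophage genes ran from 207.3 to 214.8 over the mimic arrays and from 208.2 to 215.0 over the inhibitor arrays. Delivery of the reagents could not be checked, since the 1 row that names Mir223 also names another gene.

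The 7 arrays did not separate by group along their main axis. The first principal component held 46.7% of the variance and set Pre-miR-223 replicate 2 (-0.20) and Anti-miR-223 replicate 3 (-0.17) apart from the other 5 arrays, with Pre-miR-223 replicate 4 at the opposite end (0.17). The second held 18.2%, and on it all 4 mimic arrays (0.015 to 0.11) lay above all 3 inhibitor arrays (-0.14 to 0.008). Across the 6846 genes, which are not independent replicates, Pre-miR-223 replicate 2 correlated more closely with Anti-miR-223 replicate 3 (r = 0.993) than any 2 arrays of the same group did with each other (r = 0.975 to 0.989). The median absolute difference between 2 arrays was 0.163 for pairs across the groups, 0.168 for pairs of mimic arrays and 0.175 for pairs of inhibitor arrays. Arrays given opposite reagents were therefore about as far apart as arrays given the same one. Pairs with Anti-miR-223 replicate 4 differed by 0.308 to 0.480, and 33.6% of genes in that array lay over 1.5-fold from the mean of the 7.

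**Figure D1:**
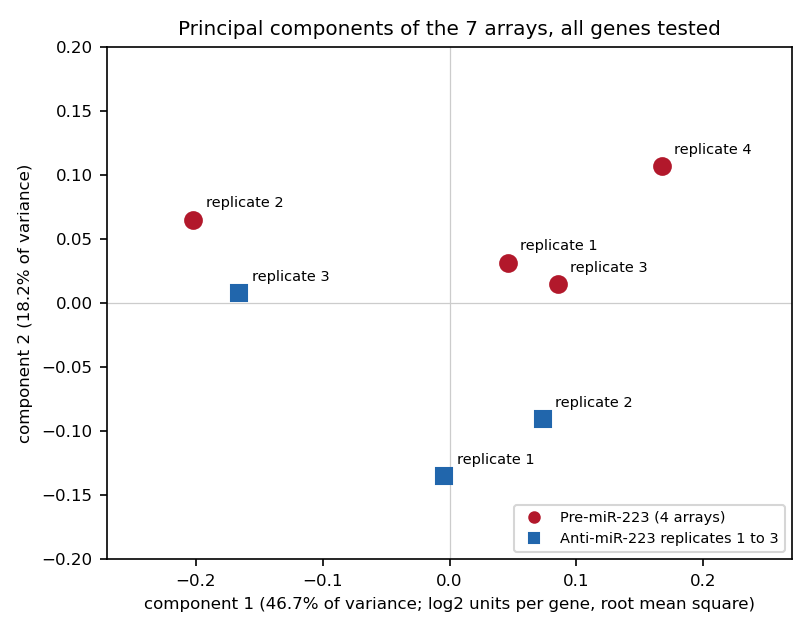
Position of the 7 compared arrays on the first (46.7% of variance) and second (18.2%) principal components of 6846 genes, each point 1 array in log2 units. Pre-miR-223 replicate 2 and Anti-miR-223 replicate 3 lie together on the left, away from the other arrays of their groups, while on the second component every mimic array lies above every inhibitor array.

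No gene passed the test between mimic and inhibitor: 0 of 6846 genes (0%) had an adjusted p under 0.05 in limma with Benjamini-Hochberg adjustment, and the lowest adjusted p was 0.584, for Tma7. The next lowest was 0.969. An ordinary linear model called 0 genes as well, with 267 at an unadjusted p under 0.05. In limma 266 genes had an unadjusted p under 0.05, of which 124 were higher with the mimic (1.81% of genes tested) and 142 lower (2.07%); 5% of 6846 would be 342.3. The count rested on single arrays: it was 752 (142 higher, 610 lower) without Pre-miR-223 replicate 2, 418 (341 higher, 77 lower) without Anti-miR-223 replicate 3 and 148 (47 higher, 101 lower) without Anti-miR-223 replicate 1, with 0 genes called each time. The 4 mimic arrays lay wholly above the 3 inhibitor arrays for 189 genes (2.76%) and wholly below them for 136 (1.99%). Over all genes 3395 were higher and 3451 lower with the mimic, with a median difference of -0.00 on the log2 scale. The 95% confidence interval of a difference reached a median of 0.28 to either side. It did not reach a 1.5-fold difference in either direction for 90.6% of genes, nor a 2-fold difference for 99.5%. The median within-group SD was 0.163 in the mimic and 0.148 in the inhibitor group.

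The genes named next are those with the smallest p among genes whose groups of arrays did not overlap, leaving out predicted or unnamed genes such as Gm6177, olfactory and vomeronasal receptors, immune receptor segments, microRNAs and small nucleolar, nuclear, transfer and ribosomal RNAs. Their separation follows from the choice and is given as a description; in limma each had an adjusted p of 0.969, apart from Tma7. Those higher with the mimic included enzymes of chromatin, of phosphoinositides and of small GTPase signalling. Smarca5, the ATPase of ISWI chromatin remodelling complexes, read 5.28, 5.22, 5.28 and 5.25 in mimic replicates 1 to 4 and 4.69, 4.93 and 4.66 in inhibitor replicates 1 to 3, a difference of 0.50 (95% interval 0.27 to 0.73). The mimic arrays lay close together, and Anti-miR-223 replicate 4, at 5.25, lay among them. Kdm4c, a histone H3 lysine demethylase, read 4.52, 4.51, 4.65 and 4.46 against 4.14, 4.10 and 4.15, a difference of 0.41 (0.19 to 0.62). Replicate 4 of the inhibitor, at 4.86, exceeded every mimic array of this gene. Epsti1, an interferon-induced gene, read 4.90, 5.12, 4.92 and 4.97 with the mimic against 4.50, 4.32 and 4.67 with the inhibitor, a difference of 0.48 (0.22 to 0.73). Its scramble arrays, at 5.48, 5.31, 5.22 and 5.04, lay above all inhibitor arrays of the comparison and mostly above the mimic arrays as well.

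The phosphoinositide phosphatases Sacm1l and Mtmr6 were higher by 0.38 (0.15 to 0.62) and 0.37 (0.13 to 0.61). Sacm1l read 7.04, 7.01, 6.92 and 7.10 with the mimic and 6.50, 6.63 and 6.77 with the inhibitor, and Mtmr6 read 6.10, 6.33, 6.21 and 6.13 against 5.73, 5.95 and 5.79. In both, the gap between the groups was smaller than the spread of the inhibitor arrays. Rasa2, a GTPase-activating protein for Ras, was higher by 0.39, Pkn2, a protein kinase, by 0.34, Otulinl by 0.33 and Mapk6, the atypical kinase ERK3, by 0.32. Anti-miR-223 replicate 4 exceeded every mimic array for Rasa2 (5.57), Otulinl (6.85) and Mapk6 (7.81), but not for Pkn2 (6.00). With that array included the differences were 0.22 for Rasa2, 0.22 for Pkn2, 0.030 for Otulinl and 0.022 for Mapk6. Extl3, a glycosyltransferase of heparan sulfate synthesis, had the widest spread of these genes, with 4.26, 4.50, 4.11 and 4.28 against 3.35, 3.81 and 4.07. It read 6.13 in Anti-miR-223 replicate 4, and with that array included its difference turned from 0.54 to -0.054. The inhibitor mean of Extl3, 3.74, lay below the level tested, log2 4, which the gene passed through the mimic arrays. The mean of the scramble arrays lay between both groups for 7 of the 10 genes, which were chosen for a gap between the groups.

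Genes lower with the mimic included those of telomerase, mitochondria, glycosylation and DNA repair. Tma7, a short protein associated with the translation machinery, read 7.60, 7.76, 7.66 and 7.40 with the mimic and 8.27, 8.25 and 8.33 with the inhibitor, a difference of -0.67 (-0.92 to -0.43; limma adjusted p = 0.584). The 3 inhibitor arrays lay close together and above all mimic arrays, whereas Anti-miR-223 replicate 4 read 6.72, below all 7; with that array the difference was -0.28. A second, dimmer row of the same gene ran the other way, with a mean of 6.00 with the mimic and 5.70 with the inhibitor, so the rows of this gene disagree. Terc, the RNA template of telomerase, read 7.65, 7.53, 7.67 and 7.26 against 8.17, 8.16 and 7.86, a difference of -0.54 (-0.83 to -0.25). Pam16, a subunit of the mitochondrial import motor, read 4.90, 5.26, 5.01 and 5.01 against 5.71, 5.48 and 5.39, a difference of -0.48 (-0.75 to -0.21). For Terc and Pam16 too, Anti-miR-223 replicate 4 lay below every array of the comparison, at 6.45 and 4.50.

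Dpm2, a regulatory subunit of dolichol-phosphate mannose synthase, read 4.63, 4.76, 4.81 and 4.57 with the mimic and 5.04, 5.10 and 5.12 with the inhibitor, a difference of -0.40 (-0.63 to -0.17). Its 4 scramble arrays, at 5.21, 5.08, 5.03 and 5.11, lay with the inhibitor arrays. The same held for Mgmt, which removes alkyl groups from guanine in DNA: the mimic arrays read 4.63, 4.93, 4.75 and 4.52, the inhibitor arrays 5.16, 5.08 and 5.16, and the scramble arrays 5.28, 5.08, 5.16 and 5.05. Chchd10, a mitochondrial protein of the intermembrane space, differed by -0.48, with mimic replicate 2 and inhibitor replicate 2 both at 4.61. Hcst, the signalling adaptor DAP10, differed by -0.62, with mimic arrays from 3.55 to 4.26. Its mimic mean, 3.88, lay below the level tested, log2 4, which it passed through the inhibitor arrays. The remaining genes of this group were Lce3c (-0.55), of the late cornified envelope family, Igsf8 (-0.39), an immunoglobulin superfamily member that binds tetraspanins, and Fam32a (-0.37). The mimic mean of Igsf8 also lay below the level tested, at 3.94. The scramble mean lay between the groups for 8 of the 10, which were likewise chosen for a gap between the groups. Over all genes tested, most of them without such a gap, it did so for 22.8%. Replicate 4 of the inhibitor lay on the inhibitor side of the mimic mean for 5 of these 10 genes and for 2 of the 10 higher ones. Over all genes tested that array did so for 46.9%.

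Most of the largest differences came with overlapping groups, as did most genes tested: the groups lay apart for only 325 of 6846. Only 15 genes differed by 1.5-fold or more, 11 higher and 4 lower with the mimic, and 3 by 2-fold or more; they are named after their values were seen. For all 11 higher genes the groups overlapped, and for 9 of them Pre-miR-223 replicate 2 was the lowest mimic array and Anti-miR-223 replicate 4 was lower than all 7 arrays. Mettl7a3, of a methyltransferase-like family, read 9.87, 8.42, 9.85 and 10.25 with the mimic and 8.93, 8.97 and 7.69 with the inhibitor (difference 1.07, 0.17 to 1.97), and 3.35 in Anti-miR-223 replicate 4. The scramble arrays of this gene ran from 4.37 to 8.78, so its range within 1 treatment exceeded the difference between treatments. Mir5112 (1.07, 0.05 to 2.10) and the pseudogene Morf4l1-ps1 (1.04, -0.13 to 2.21) were the other genes past 2-fold. Tuba1c, an alpha-tubulin, read 10.05, 7.13, 9.82 and 10.21 against 8.52, 9.53 and 7.55, and Nme1, a nucleoside diphosphate kinase, 9.65, 7.92, 9.49 and 9.78 against 8.70, 9.02 and 8.13. In both genes Pre-miR-223 replicate 2 lay below all 3 inhibitor arrays. The 4 lower genes were the pseudogene Gm6177 (-0.90), the ribosomal protein gene Rpl34 (-0.76), Tma7 and Hcst, of which only Rpl34 had overlapping groups. Gm6177 and Hcst had mimic means below the level tested, at 3.96 and 3.88.

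Over the 7 arrays more reported miR-223 targets read higher than lower with the mimic, by small amounts. Of 38 listed genes 28 were tested, 8 lay at or below the level (among them Nfia, Rhob and Igf1r) and Chuk and Acsl3 had no row with a single symbol. With the mimic 19 were higher and 9 lower, with a median difference of 0.04 against -0.00 over all genes, and 0 were called. Over all protein-coding genes the median also varied with gene span, from -0.12 in the shortest to 0.06 in the longest of 10 bins, as described below. The targets, from 1.52 kb (Cebpb) to 164 kb (Fbxw7) in span, were not set against genes of like span. With Anti-miR-223 replicate 4 included the median turned to -0.07, against -0.08 over all genes. The confidence interval did not reach a 1.5-fold difference for 26 of the 28. In limma 1 target was lower and 1 higher at an unadjusted p under 0.05, against 2.07% and 1.81% of all genes. The lower one was Pknox1, a homeobox transcription factor reported as a miR-223 target in macrophage polarization. It read 3.98, 4.03, 3.73 and 3.77 with the mimic and 4.01, 4.33 and 4.16 with the inhibitor, a difference of -0.29 (-0.56 to -0.02; limma adjusted p = 0.969). Its groups overlapped, and its mean lay next to the level required for testing, with the mimic mean below that level at 3.88. The higher one was Insig1, which holds the SREBP activator in the endoplasmic reticulum and so restrains cholesterol synthesis. It read 7.39, 7.54, 7.56 and 7.52 against 7.26, 7.16 and 7.31, a difference of 0.26 (0.04 to 0.48; limma adjusted p = 0.969), and 8.05 in Anti-miR-223 replicate 4.

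The groups also lay apart for Fbxw7, the substrate receptor of a ubiquitin ligase (4.15 to 4.36 with the mimic, 3.98 to 4.12 with the inhibitor), and for Rasa1, a Ras GTPase-activating protein (7.17 to 7.29 against 7.04 to 7.17). Both were higher with the mimic, as was Insig1, so 3 of 28 targets lay wholly higher, against 2.76% of all genes. No target was wholly lower, against 1.99% of all genes, a share at which 28 genes may hold none. The inflammasome sensor Nlrp3 read 5.69, 5.81, 5.33 and 5.44 with the mimic and 5.32, 5.53 and 5.75 with the inhibitor, a difference of 0.03 (-0.29 to 0.35). Mef2c, a transcription factor of myeloid differentiation, read 8.69, 7.47, 8.33 and 8.58 against 8.15, 8.24 and 7.75, a difference of 0.22 (-0.34 to 0.78). Its interval was the widest of the targets, and it read 4.19 in Anti-miR-223 replicate 4 and 6.65 and 5.95 in scramble replicates 1 and 2. A dimmer row of Mef2c differed by 0.02. Lmo2, a haematopoietic adaptor (-0.01, -0.25 to 0.23), E2f1, a regulator of S phase entry (0.01, -0.21 to 0.22), and Stmn1, a microtubule destabiliser (-0.06, -0.33 to 0.20), had overlapping groups and intervals inside 1.5-fold. Other tested targets ran from -0.19 for Smarcd1 to 0.22 for Cxcl2.

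**Figure D2:**
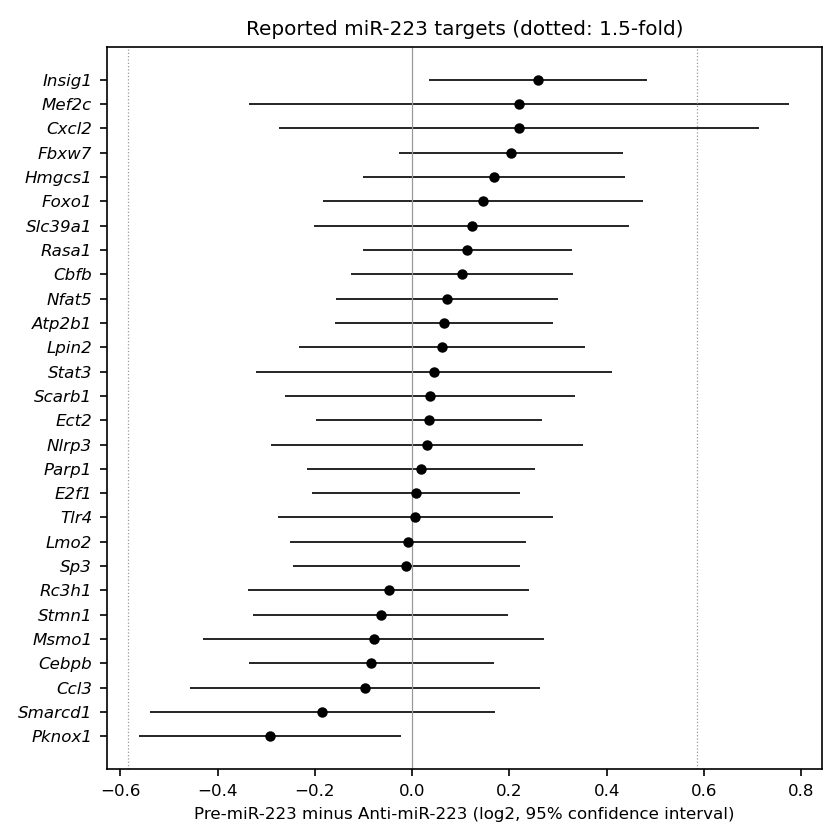
Difference between mimic and inhibitor (log2, points) with its 95% confidence interval (lines) for the 28 reported miR-223 targets tested, dotted lines marking 1.5-fold. Pknox1, at -0.29, and Insig1, at 0.26, are the ends of the range, and 26 intervals lie within the dotted lines.

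Among gene lists, most ribosomal protein, respiratory chain and small nucleolar RNA genes read lower with the mimic, with 0 genes called in any list. Of the 43 cytosolic ribosomal protein genes tested 42 were lower, with a median of -0.18 and 6 at an unadjusted p under 0.05, against 2.07% of all genes. Rps28, of the small subunit, read 9.10, 9.34, 8.80 and 8.83 with the mimic and 9.46, 9.18 and 9.65 with the inhibitor (difference -0.41, -0.76 to -0.07), so its groups overlapped. The exception was Rps18, at 0.44 with an interval from -0.59 to 1.48. Ribosomal genes have many processed copies in the genome whose probes can share signal, so single members are uncertain. The median over the list lay at -0.27 to 0.17 relative to the 7-array mean in the mimic arrays and at -0.02 to 0.22 in the inhibitor arrays, and thus overlapped.

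Respiratory chain genes, which encode subunits of the mitochondrial electron transport complexes and ATP synthase, were lower for 56 of 62, with a median of -0.14. In limma 9 were lower at an unadjusted p under 0.05, against 2.07% of all genes. The median over the list, relative to the 7-array mean, lay at -0.22 to 0.17 in the mimic arrays. In the inhibitor arrays it lay at -0.05 to 0.17, so the groups overlapped. Uqcrh, a subunit of complex III, read 6.51, 6.89, 6.43 and 6.45 against 6.99, 7.03 and 6.89, a difference of -0.40 (-0.68 to -0.12). Mimic replicate 2 came level with the lowest inhibitor array, while the other 3 lay clearly below it. Cox7b, of cytochrome oxidase, was chosen after its values were seen: the mimic arrays read 9.28 to 9.50 and the inhibitor arrays 9.68 to 9.74. Small nucleolar and Cajal body RNAs, which guide modification of ribosomal and spliceosomal RNA, were lower for 57 of 70, with a median of -0.15. Of them 8 were lower at an unadjusted p under 0.05 in limma, also against 2.07% of all genes. The median over this list overlapped too, at -0.17 to 0.07 in the mimic arrays and -0.05 to 0.14 in the inhibitor arrays. Snora30 read 6.06, 6.05, 6.26 and 6.13 with the mimic and 6.68, 6.66 and 6.44 with the inhibitor, a difference of -0.47 (-0.71 to -0.23). In Anti-miR-223 replicate 4 it read 4.81, far below both groups.

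These 3 lists depended on the left-out array to different degrees. With all 8 arrays 37 of 43 ribosomal protein genes (median -0.12) and 42 of 62 respiratory chain genes (-0.04) were lower with the mimic. The small nucleolar RNAs turned round: 3 of 70 were lower and the median was 0.26. In Anti-miR-223 replicate 4 the median small nucleolar RNA lay at -1.62 relative to the mean of the 7 arrays, the median ribosomal protein gene at -0.22 and the median respiratory chain gene at -0.34. Leaving out any 1 of the 7 arrays instead gave medians of -0.25 to -0.13 for ribosomal protein genes, -0.25 (without Pre-miR-223 replicate 2) to -0.09 (without Anti-miR-223 replicate 3) for respiratory chain genes and, in the opposite order of the same arrays, -0.09 to -0.22 for small nucleolar RNAs. Histone genes, whose short messages lack a poly(A) tail, moved likewise, with 9 of 12 lower and a median of -0.04 over the 7 arrays but 0.22 over 8. Their list, named core histones, also admits linker H1 genes by its rule. Of the 12 genes H2bc9 had the smallest p and read 4.50, 4.48, 4.44 and 4.23 against 4.67, 4.86 and 4.65, and 3.19 in Anti-miR-223 replicate 4.

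The same direction ran through short genes in general. Gene span, the length from start to end in RefSeq with introns, is not transcript length. The 25% of protein-coding genes with the shortest span (at most 11.05 kb) had a median difference of -0.08, with 1191 of 1646 lower with the mimic. In the 25% with the longest span (at least 53.2 kb) it was 0.06, with 1140 of 1646 higher. Over 10 bins of span the median ran from -0.12 in the shortest, where 79.8% were lower, through 0.02 in the sixth to 0.06 in the longest, where 31.6% were lower. Of the ribosomal protein genes 42 of 43 and of the respiratory chain genes 44 of 62 were among the shortest 25%; short genes outside both lists had a median of -0.07, with 1110 of 1560 lower. Genes at an unadjusted p under 0.05 had a median span of 5.93 kb where lower with the mimic and 45.2 kb where higher, against 24.9 kb over all.

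**Figure D3:**
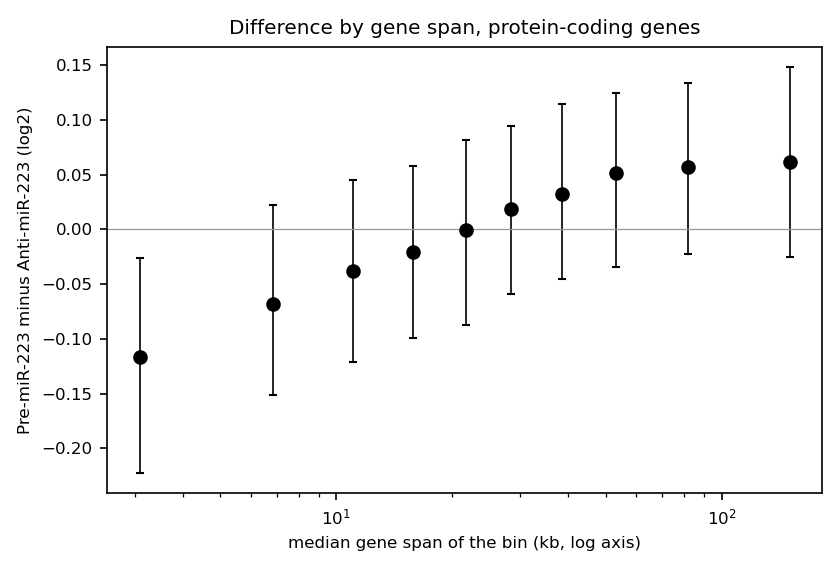
Median difference between mimic and inhibitor (log2, points) with the lower and upper quartile of genes (bars) for protein-coding genes in 10 bins of gene span, on a log axis in kb. The median climbs from -0.12 in the shortest to 0.06 in the longest bin, with wide overlap between bins.

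Array by array, the median of short genes minus that of long genes was -0.07, -0.00, -0.05 and -0.12 in mimic replicates 1 to 4 and 0.14, 0.03 and 0.07 in inhibitor replicates 1 to 3. Every mimic array lay below every inhibitor array of the comparison, with mimic replicate 2 and inhibitor replicate 2 the nearest. Anti-miR-223 replicate 4 lay at -0.38, below all 4 mimic arrays. The scramble arrays, at 0.11, -0.05, 0.06 and 0.01, spread over most of the range of both groups. The mean was -0.06 ± 0.05 (SD, n = 4) for the mimic and 0.08 ± 0.06 (SD, n = 3) for the inhibitor, and -0.03 ± 0.23 for the inhibitor with replicate 4. No p is given for this, since the array left out was chosen on its values and is the one without which the groups lie apart. RNA quality values were not analysed here, and their part in the pattern was not tested.

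The other lists had medians between -0.06 and 0.07. Macrophage identity genes were lower for 19 of 25 (median -0.06), and Tyrobp, the ITAM adaptor, had the smallest p: it read 9.13, 9.56, 8.97 and 8.77 with the mimic and 9.54, 9.23 and 9.68 with the inhibitor, so mimic replicate 2 lay with the inhibitor arrays. NRF2 response genes were lower for 11 of 16 (-0.06), with the glutathione peroxidase gene Gpx1 at -0.34 (-0.70 to 0.02). Lysosomal genes were lower for 14 of 22 (-0.03) and cytoskeletal and adhesion genes for 17 of 27 (-0.04). Actg1, a cytoplasmic actin, differed by 0.32 (-0.08 to 0.72) and had 6 rows, which ran from -0.22 to 0.50. MicroRNA machinery genes were higher for 9 of 13, with the largest list median, 0.07. Mov10, an RNA helicase that binds Argonaute, went the other way: 4.44, 4.81, 4.62 and 4.52 with the mimic against 4.85, 4.90 and 4.95 with the inhibitor (-0.30, -0.56 to -0.05).

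Of the signalling and immune lists, interferon response genes were higher for 11 of 18 (median 0.06), and beside Epsti1 none had an unadjusted p under 0.05; Irf7, a transcription factor of that response, differed by -0.35 (-0.79 to 0.08). NF-kB genes were higher for 11 of 20 (0.04), with the adaptor gene Tank at 0.24 (-0.11 to 0.58). For chemokines 3 of 7 were higher (-0.01), and Ccl2, a monocyte attractant, read 4.89, 5.50, 4.92 and 5.33 against 4.79, 4.75 and 5.15. Of alternative activation genes 4 were tested and 3 were higher (0.03). Socs3, a suppressor of cytokine signalling, ran from 4.04 to 5.32 with the mimic and from 3.89 to 4.60 with the inhibitor. A dimmer row of Socs3, below the level tested, differed by 0.04, against 0.49 in the row used. For PI3K, FOXO and IGF signalling 11 of 18 were higher (0.05), and Igf2r, the receptor that sorts lysosomal enzymes and clears IGF2, differed by 0.31 (0.05 to 0.57) with overlapping groups. Osteoclast genes split evenly, 7 higher and 7 lower (0.02), with the kinase gene Src at 4.41 to 4.58 with the mimic and 4.28 to 4.34 with the inhibitor.

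In lipid metabolism, cholesterol synthesis genes were higher for 8 of 18 (median -0.02), LXR and efflux genes for 3 of 9 (-0.02) and fatty acid synthesis genes for 5 of 11 (-0.01). The elongase gene Elovl6 read 5.07, 5.45, 5.16 and 5.02 with the mimic and 4.87, 4.94 and 5.01 with the inhibitor, but 7.96 in Anti-miR-223 replicate 4. With that array its difference turned from 0.24 to -0.52. Lpcat3, a lysophospholipid acyltransferase induced by LXR, differed by -0.18 (-0.45 to 0.09). The cell cycle lists stood at -0.01 for G1/S replication (16 of 36 higher) and 0.02 for G2/M (19 of 32 higher). Top2a, the mitotic topoisomerase, read 7.87, 7.89, 7.94 and 7.90 against 7.67, 7.73 and 7.81, and Gins2, of the replicative helicase, 5.54, 5.92, 5.71 and 5.42 against 5.92, 5.85 and 5.98. The 4 mimic values of Top2a lay close together, yet its interval (-0.05 to 0.38) included 0.

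The remaining lists covered stress and housekeeping. Unfolded protein response genes split 11 to 11 (-0.00), with Sel1l, of the endoplasmic reticulum degradation complex, at 0.18. Glycolysis and hypoxia genes were higher for 8 of 17 (-0.02), and the glucose transporter gene Slc2a1 differed by -0.25 (-0.54 to 0.03). Proteasome subunits were higher for 16 of 35 (-0.02), with Psma7 at -0.17. Immediate early genes were higher for 9 of 20 (-0.01), with Jund at 0.16. Chaperones were higher for 9 of 14 (0.03), with the co-chaperone gene Bag3 at -0.11. Autophagy genes were higher for 8 of 14 (0.01), with Becn1, of the class III PI3-kinase complex, at 0.20, and the lysosomal proton pump gene Atp6v1a stood at 0.14. For every one of these 6 lists the medians of the mimic and inhibitor arrays overlapped.

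**Figure D4:**
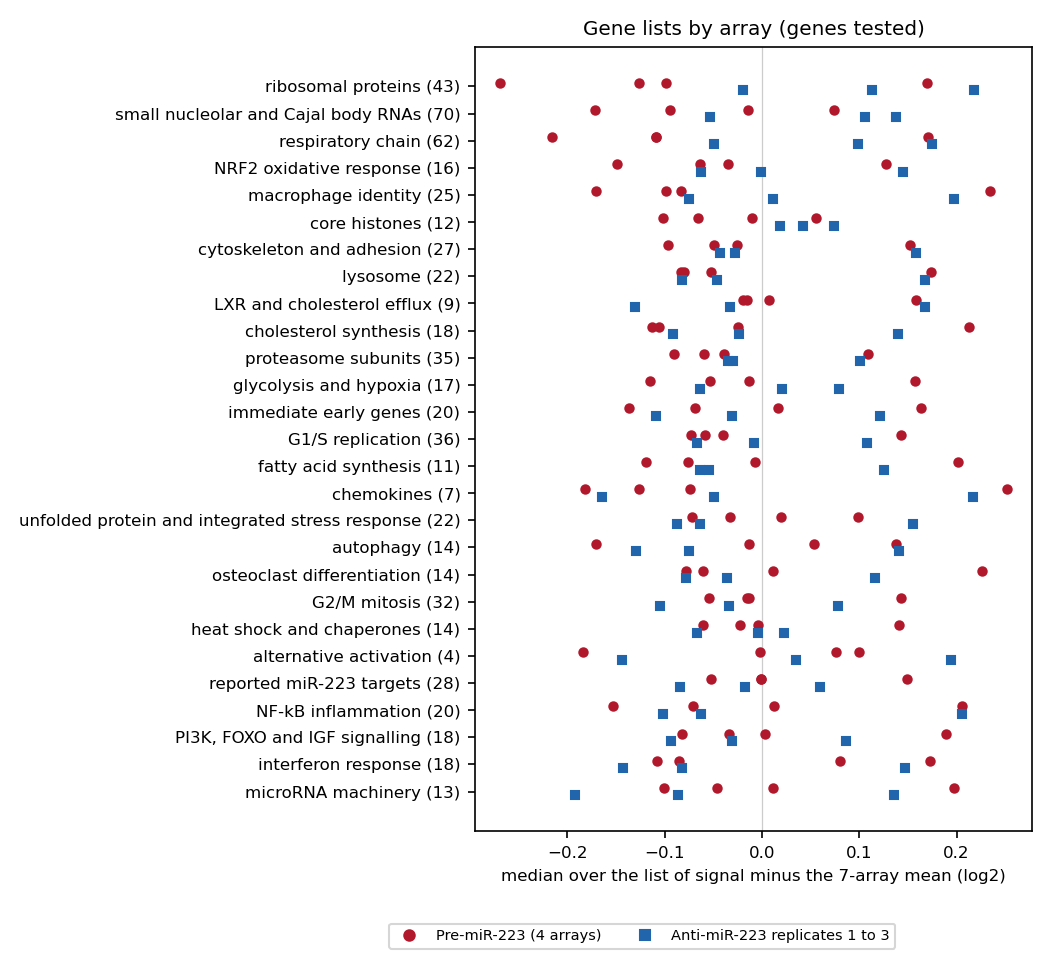
Median over each of 27 gene lists of the log2 signal minus the mean of the 7 arrays, 1 mark per array, lists ordered by the difference between groups (genes tested in parentheses). Ribosomal protein genes, at -0.18, have the lowest and microRNA machinery genes, at 0.07, the highest median difference, and in most lists 1 array of each group lies to the right of the rest, Pre-miR-223 replicate 2 and Anti-miR-223 replicate 3.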

How the data were processed

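Total RNA of RAW 264.7 cells was hybridised to 12 arrays after labelling with the GeneChip WT PLUS kit, per the labels' protocols. The deposited values are the authors' log2 signals of 41345 transcript clusters; RMA, Partek and Affymetrix Expression Console are listed, without versions, per the submitters' processing notes. The log base is not given in the sources used here and was taken as 2, as RMA writes it. Of these rows 23521 carry 1 gene symbol, 1814 several and 16010 none; only the first were used, with the brightest row per symbol and a mean above log2 4 over the 7 arrays. The test between the 4 mimic and 3 inhibitor arrays used limma 3.58.1 (R 4.3.3; lmFit, then eBayes; 2-sided, no covariate, 5 residual degrees of freedom), with Benjamini-Hochberg adjustment over 6846 genes and calls at adjusted p under 0.05. Intervals are 95% confidence intervals of that fit. RefSeq (GRCm38.p6) gave span and biotype for 6824 genes. Lists were described by counts and medians. Genes were named by the smallest p without overlap (10 per direction, leaving out predicted or unnamed genes, olfactory and vomeronasal receptors, immune receptor segments, microRNAs and other small or ribosomal RNAs), the smallest p per list, and 7 reported targets (5 tested). The array left out, the members and the lists were chosen with earlier results of these data known. The fit was tested on simulated data. Precision is limited by the number of arrays, which carry no depth. Alternatives changed the arrays, the scaling, the level, the rows and the test.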

Additional observations from a re-analysis of the deposited data

Results flagged for a closer look

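Single arrays far from the other 3 of their group were sought among 80 values of the mimic group: named genes, list medians and the medians of short and of long genes. Of these 5 stood out, each in Pre-miR-223 replicate 2, and about 1 in 20 would by chance. Slc2a1 read 7.45 in that array against 7.04 to 7.05 in the others, and Uqcrh 6.89 against 6.43 to 6.51. The median deviation from the 7-array mean was 0.16 for LXR and efflux genes (others -0.02 to 0.01), 0.14 for G1/S genes (-0.07 to -0.04) and 0.17 for lysosomal genes (-0.08 to -0.05). The inhibitor group, with 3 arrays, was too small for this.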

How the results depend on the processing

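Under all 22 alternatives, 1 of them added after seeing the data, 0 genes were called in limma; the lowest adjusted p was 0.0610, for Tma7 with a trended, robust prior, against 0.0700 to 0.9996 for that gene under the others. The count of genes at an unadjusted p under 0.05 moved from 266 to 102 with all 8 arrays, 622 with all 8 arrays weighted, 596 with each array centred, 582 after cyclic loess, 531 after a further quantile normalization, 846 without a level filter (22180 genes tested) and 705 with mimic replicate 2 and inhibitor replicate 3 both left out, the added alternative. Leaving out 1 array gave 148 (inhibitor replicate 1 left out) to 752 (mimic replicate 2 left out), and 418 where inhibitor replicate 3 was left out. With the replicate block it was 82. Same-numbered arrays had correlations of 0.08, -0.41 and -0.23 in their deviations from the group means. Such deviations cancel within a group, so these values cannot show whether the numbers pair the samples. The median difference over all genes stayed within the replicate spread throughout. Of 594 list medians 19 moved by more than the replicate spread, and 17 of 27 lists had none that did. With all 8 arrays, and with all 12 in the fit, these were reported targets (-0.068), cholesterol synthesis (-0.18), osteoclast (-0.14), G1/S (-0.11), G2/M (-0.13), PI3K (-0.079) and chaperone genes (-0.052), core histones (0.22) and small nucleolar RNAs (0.26), beside -0.081 over all genes; alternative activation genes moved to -0.19 above log2 5. Of 51 named genes 42 kept their direction. With all 8 arrays, and with all 12 in the fit, the sign turned for Extl3 (-0.054), Elovl6 (-0.52), Sel1l (-0.073), H2bc9 (0.069), Cd209a (0.48), Nlrp3 (-0.064), Lmo2 (0.012) and E2f1 (-0.034). With weights it turned for Cd209a (0.015), Lmo2 (0.030) and E2f1 (-0.0071), and otherwise for Lmo2 with the replicate block (0.016), Cd209a after cyclic loess (0.015) and as the mean of its rows (0.0019), E2f1 after quantile normalization (-0.0075), and Stmn1 (0.056) and E2f1 (-0.028) without both arrays. Leaving out 1 array moved Nlrp3 between -0.076 and 0.14, Lmo2 between -0.080 and 0.028, E2f1 between -0.013 and 0.040 and Stmn1 between -0.19 and 0.034. The cause was not tested. The number of arrays and signals near the level limit single genes.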
